A study of Mus musculus with 32 samples.

Results

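The 10 genes described here were the glucocorticoid receptor, the supply side of its ligand, its chaperone and a set of genes that glucocorticoids induce in lung: Crh, Hsd11b1, Nr3c1, Fkbp5, Tsc22d3, Zbtb16, Klf9, Sgk1, Dusp1 and Scnn1a. They were named one by one and chosen with earlier results of these data known; no threshold on their values was used. Each was represented by the probe set of its symbol with the highest mean over all arrays, and all 10 were found among the 13345 genes tested. Lung RNA was measured on 32 Affymetrix mouse arrays, 1 per mouse, in 10 groups. The groups were glutathione reductase wild type (Gsr-WT) and knockout (Gsr-KO) mice, both of strain C3H/HeN. Embryonic lungs were taken at day 19 (E19) with no exposure. Newborns were kept with their dams in room air or in continuous 100% oxygen (hyperoxia) from birth to day 5 and were killed at day 5 (P5) or at day 56 (P56). Gsr is missing from every tissue of a knockout as the labels describe it, with no cell type named, and only a portion of each lung was used. Each E19 group had 4 arrays and each other group 3, few enough to leave wide errors. The labels call them biological replicates and give neither sex nor litter.

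Glucocorticoids are steroid hormones that bind a receptor held in the cytoplasm by chaperones. The bound receptor enters the nucleus, where it raises or lowers transcription of its target genes. In the lung a surge of these hormones around birth is known to drive the thinning of the airspace walls, the making of surfactant and the switch from fluid secretion to fluid absorption.

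The receptor binds DNA as a pair, each partner reading a half-site. Its half-site was searched as AGAACA or its reverse complement TGTTCT, and the full palindrome as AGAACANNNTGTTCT, on both strands. RefSeq windows on GRCm38.p6 running from 250 bases before to 50 after an annotated start were available for 6 of the 10 genes, 13 windows in all. The half-site was in 4 of the 13, and in 19.0% of all 32851 such windows. Of the 13 windows 6 were of Sgk1, and those with a half-site were of Sgk1 and Tsc22d3 alone. The first share thus counts alternative starts of the same gene and is no share of genes. The palindrome was in 3 of the 32851, and 1 of those belonged to Sgk1. The Sgk1 window that holds it and the only Tsc22d3 window with a half-site are printed because they hold the palindrome and the 1 other member's half-site; capitals mark every half-site. The palindrome lies from 189 to 175 bases before the start of its window's transcript, and 965 bases before the start at 21994666 of a shorter one. A match describes letters and not binding, which these arrays did not measure.
Sgk1, chr10:21993640-21993939, plus strand: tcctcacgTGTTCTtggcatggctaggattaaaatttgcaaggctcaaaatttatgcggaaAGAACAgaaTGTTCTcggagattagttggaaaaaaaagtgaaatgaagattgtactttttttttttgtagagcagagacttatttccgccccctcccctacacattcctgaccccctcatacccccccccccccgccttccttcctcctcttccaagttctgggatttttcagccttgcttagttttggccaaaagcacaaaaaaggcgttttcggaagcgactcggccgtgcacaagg
Tsc22d3, chrX:140600473-140600772, minus strand: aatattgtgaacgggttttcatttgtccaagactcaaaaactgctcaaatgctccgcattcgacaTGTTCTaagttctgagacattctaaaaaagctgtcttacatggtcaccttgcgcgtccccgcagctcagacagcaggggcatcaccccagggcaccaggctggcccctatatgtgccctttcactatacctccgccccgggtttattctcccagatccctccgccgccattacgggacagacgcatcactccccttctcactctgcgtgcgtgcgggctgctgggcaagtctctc

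The deposited values are intensities in arbitrary units, and a level of one gene cannot be set against that of another, since each probe set has its own response. A change is given as a log2 difference of intensity plus 26.3 with its standard error (SE), which understates the change of dim genes. "Called" means an adjusted p under 0.05 in limma over all 13345 genes. Gsr lay between 498 and 1541 in the 16 WT arrays and between 138 and 257 in the 16 KO arrays, so every array carried its labelled genotype. Sftpc, the defining gene of alveolar type II cells, stood at 12636 or above on every array. Array medians ran from 68.4 to 124.6. For 10 of the 32 arrays the array with the highest correlation lay in another group. The 5' control probe set for 18S RNA read 16417 to 19030 in WT P5 air and 229 to 1867 in KO P5 air. At E19 it read 12047 to 20577 in WT, and 83.6, 1431, 20346 and 597 in KO. In P5 hyperoxia it read 17441 to 18961 in WT and 3542 to 15688 in KO, the latter above every KO P5 air array. In P56 air it read 4586 to 18755 in WT and 2612 to 8395 in KO. In P56 hyperoxia it read 18073, 119 and 22352 in WT and 342 to 636 in KO. Its part in the genotype and oxygen differences was not tested.

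**Figure D1:**
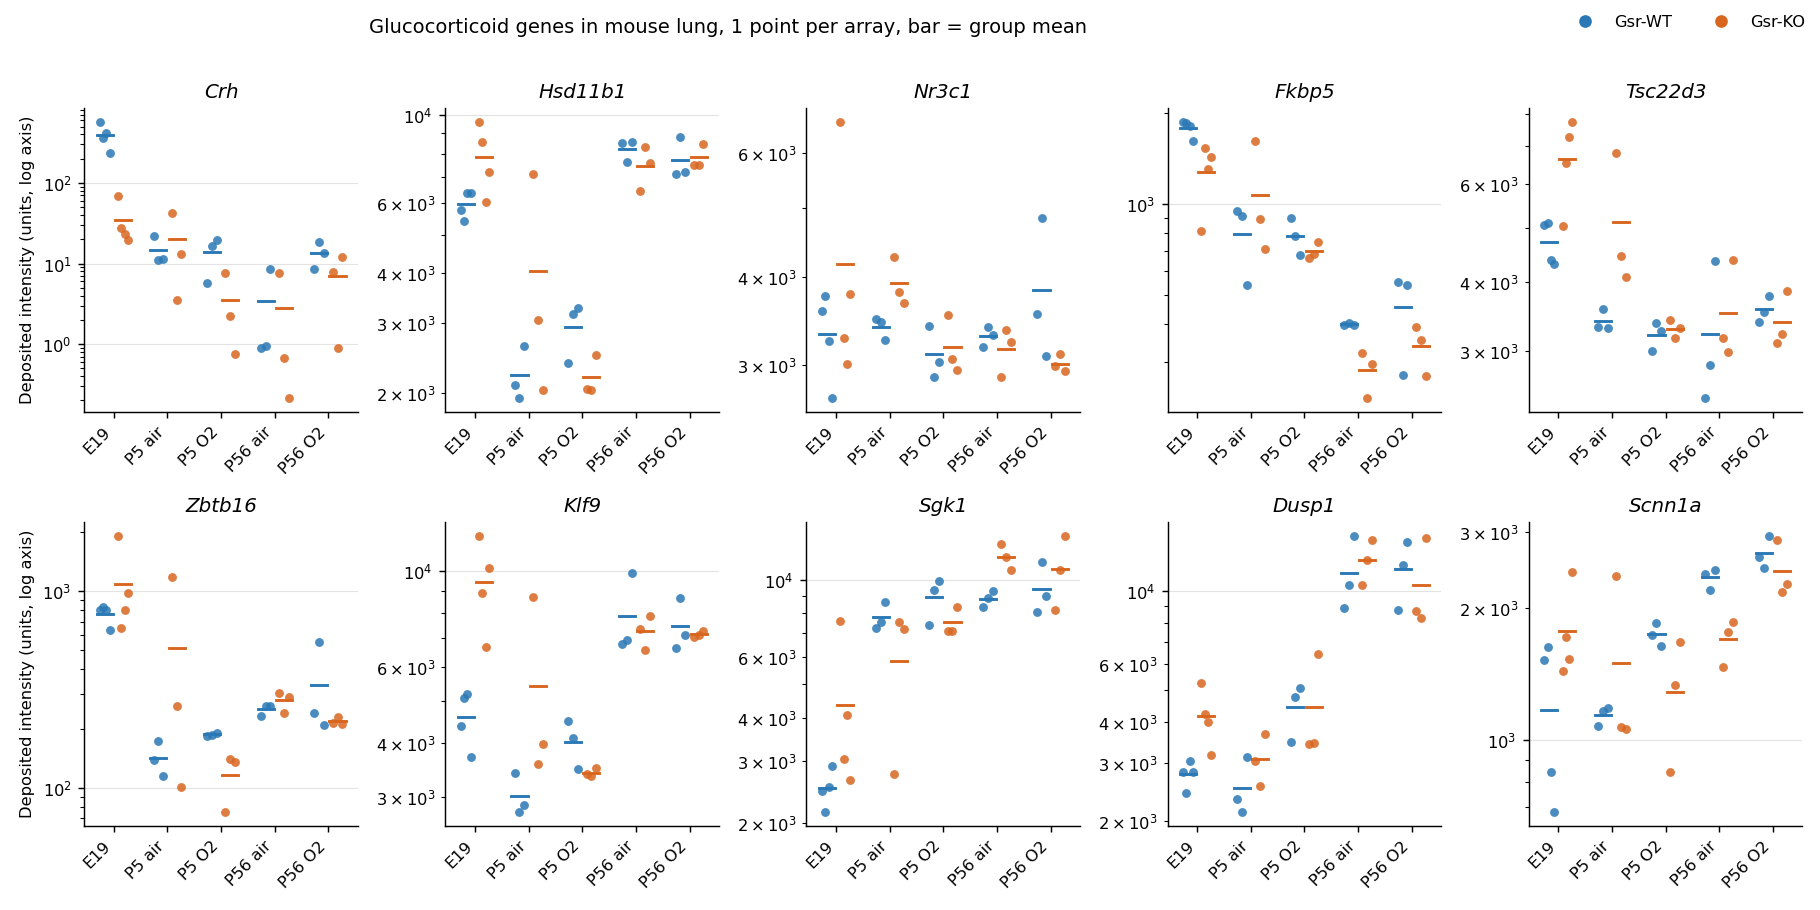
Deposited intensity of the 10 genes on a log axis, with 1 point per array and a bar at each group mean, by age and exposure (O2 is hyperoxia), Gsr-WT in blue and Gsr-KO in orange. Crh is high in the 4 WT E19 arrays alone, and 1 KO P5 air array sits beside the KO E19 arrays in most panels.

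3 arrays bear on what follows. KO E19 replicate 1 had a ratio of 3' to 5' control probes of 4.27 on the log2 scale, against -0.06 to 2.81 on the others, and its best correlation with its own group was 0.884. WT P56 hyperoxia replicate 2 had the next highest ratio, 2.81. KO P5 air replicate 1 correlated best with KO E19 replicate 2 (0.976), and with its own group at 0.961 at best. For 9 of the 10 genes this array was closer to the mean of KO E19 than to the mean of its 2 group mates, all but Dusp1. Its Zbtb16 intensity of 1178 was 2.66 above its group mates on the log2 scale and 0.24 above KO E19. Hsd11b1 was 1.51 above its group mates and differed from KO E19 by -0.12, and Sgk1 stood at -1.42 and -0.53. The main values that rest on these arrays are also given without the 3 of them, an alternative chosen after their values were seen. Leaving out arrays that stand apart also narrows the spread by construction.

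**Figure D2:**
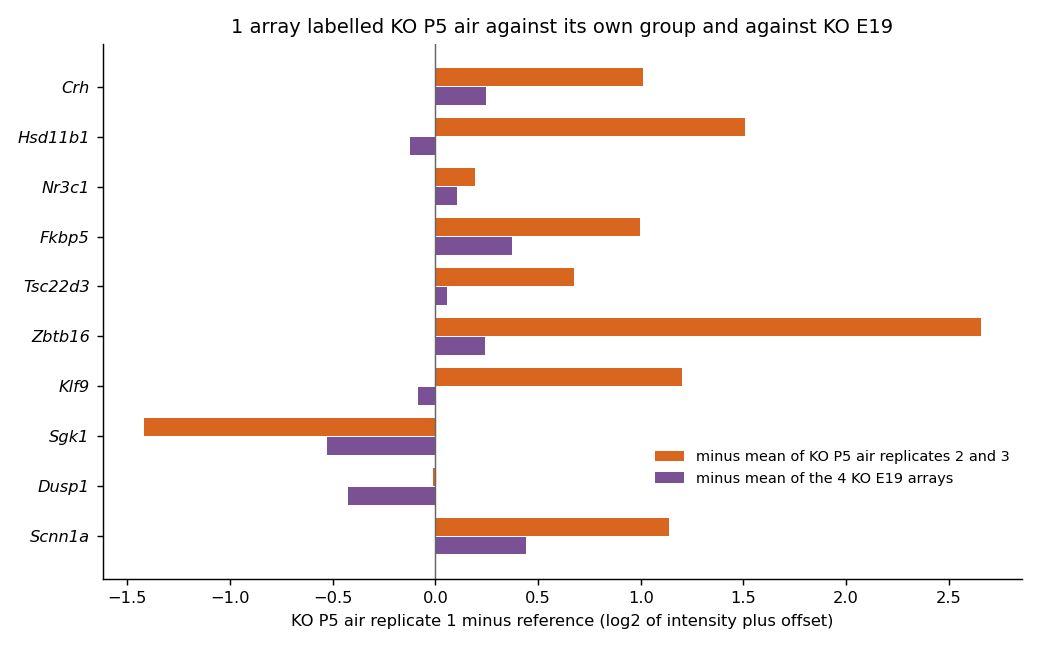
Difference on the log2 scale between KO P5 air replicate 1 and the mean of the other 2 KO P5 air arrays (orange), and between it and the mean of the 4 KO E19 arrays (purple). The orange bar is the longer for every gene but Dusp1, with the longest at 2.66 for Zbtb16.

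Crh encodes corticotropin-releasing hormone, the hypothalamic peptide that starts the stress axis. In WT E19 lungs its intensity was 568, 364, 414 and 237. In KO E19 lungs it was 68.3, 27.8, 23.3 and 19.3. Every WT array lay above every KO array, and in the 24 postnatal arrays Crh stayed between 0.213 and 42.9. The KO E19 mean of 34.7 ± 22.7 stood against 396 ± 137 in WT (SD, n = 4 and 4), a difference of -2.79 (SE 0.27, limma adjusted p = 1.58e-07), or -3.03 without the 3 arrays. Crh was also lower in WT P5 air than in WT E19, with 21.8, 11 and 11.3, a change of -3.31 (SE 0.29, limma adjusted p = 6.15e-08). Both sizes depend on the offset, because all KO and postnatal arrays were under 100.4, the median of all values, and with the dim group set to that median each is -1.68. Crh passed the filter on low values only through the 4 WT E19 arrays, so it had to differ there. The change across birth differed between genotypes by 2.89 (SE 0.41, limma adjusted p = 0.000660), a call that was lost with the 4 compared groups fitted alone (adjusted p = 0.131) and with an offset of 1 (adjusted p = 0.295).

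Liver transcripts varied widely between arrays at E19, and the ranges of the 2 genotypes overlapped. The 7 of 8 liver markers measured summed to between 1562 and 144268 units in WT E19 and between 383 and 6736 in KO E19. The lowest WT E19 sum was in replicate 1, whose Crh of 568 was the highest of all arrays. With the liver level as a covariate the Crh difference was -3.11. Crh entered the test through WT E19 alone, so neither that fit nor 1 array can show what part liver had in the difference. That part was not tested. In a bulk lung sample fewer cells of a type and less RNA per cell cannot be told apart.

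Hsd11b1 encodes the enzyme that regenerates active glucocorticoid from its inert keto form inside cells. In WT its intensity was 5759, 5426, 6355 and 6356 at E19, then 2091, 1935 and 2623 in P5 air, then 8535, 7647 and 8559 in P56 air. The 3 ages did not overlap: the gene dipped after birth and was highest in the adult. It fell by 1.43 on the log2 scale from E19 to P5 (SE 0.24, limma adjusted p = 0.000277) and rose by 1.89 from P5 to P56 (SE 0.26, limma adjusted p = 4.04e-06). In KO the values were 9613, 8577, 6044 and 7202 at E19, then 7115, 3039 and 2025 in P5 air, then 6430, 8309 and 7582 in P56 air. KO E19 and P56 air overlapped, and of the P5 air arrays replicate 1 alone, at 7115, lay within their ranges. The KO changes were -1.13 (SE 0.24, limma adjusted p = 0.0186) and 1.06 (SE 0.26, limma adjusted p = 0.00258), and without the 3 arrays -1.53 and 1.57. Leaving out KO P5 air replicate 2 or 3 instead ended the birth call (adjusted p = 0.228 and 0.313). Between KO and WT it was called at no age; the difference at E19 was 0.38 (95% interval -0.09 to 0.84), and 0.27 without the 3 arrays.

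Among 12 further genes of steroid supply 7 were measured. Hsd11b2, the enzyme that inactivates glucocorticoid, rose by 1.61 in WT from E19 to P5, from a mean of 93.7 to 314, and fell by 1.25 from P5 to P56. Its direction across birth was thus the opposite of that of Hsd11b1. Nr3c2, the mineralocorticoid receptor, which also binds glucocorticoid, rose between P5 and P56 in both genotypes, by 1.77 in WT and 1.67 in KO as fitted. Its P5 arrays were all under the median, and with them set to it the differences were 1.34 and 1.21. Serpina6, the blood carrier of glucocorticoid made in liver, was lower in KO at E19 by 3.01 on the log2 scale, or -1.46 with the KO arrays set to the median. It moved with the liver markers. With their level as a covariate 2 of the 58 further listed genes tested were called at E19, in place of 12. The value of Serpina6 under that setting is not given here. H6pd, which supplies Hsd11b1 with NADPH, was higher in KO at E19 by 0.39.

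Nr3c1 encodes the glucocorticoid receptor itself. Its intensity ran from 2689 to 6627 over all 32 arrays, and the lowest and highest group means were 1.32-fold apart, the smallest span of the 10 genes. In WT it was 3582, 3754, 3242 and 2689 at E19, then 3486, 3448 and 3254 in P5 air, then 3184, 3396 and 3309 in P56 air. KO E19 gave 6627, 3279, 3012 and 3781, with the high value from replicate 1. All neighbours in the order of the 10 group means overlapped. Nr3c1 was called in none of the 16 comparisons; its KO difference at E19 was 0.27 (95% interval -0.08 to 0.62), and 0.02 without the 3 arrays. Of its 6 probe sets 5 passed the filter, and at E19 their KO differences ran from -0.63 to 0.39, none called.

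Fkbp5 encodes a co-chaperone that lowers the receptor's affinity for hormone and is itself induced by it, which makes it a feedback gene. In WT E19 it read 1871, 1866, 1811 and 1620. It then read 947, 913 and 537 in P5 air and 396, 405 and 398 in P56 air. The 3 WT ages did not overlap and stepped down with age. Fkbp5 fell by 1.18 from E19 to P5 (SE 0.25, limma adjusted p = 0.00218) and by 0.91 from P5 to P56 (SE 0.27, limma adjusted p = 0.0136). The second call was lost without WT P5 air replicate 1 or 2 (adjusted p = 0.0833 and 0.0712), and with its next probe set, which gave -0.27. KO E19 gave 816, 1540, 1310 and 1431, all below the lowest WT array. The KO difference there was -0.52 (SE 0.23, limma adjusted p = 0.129), which was not called. By exact permutation of the 8 arrays its two-sided p was 0.0286, the smallest that 70 splits allow. Any gene whose ranges do not overlap gets this value, and that held for 10.1% of all genes at E19. The lowest KO value came from replicate 1, and without the 3 arrays the difference was -0.32.

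In KO, Fkbp5 was 1615, 895 and 709 in P5 air and 320, 227 and 295 in P56 air. Its change across birth was -0.29 with all arrays (limma adjusted p = 0.524) and -0.82 without the 3 (adjusted p = 0.00319). It fell from P5 to P56 by 1.77 (SE 0.27, limma adjusted p = 1.57e-05), or by 1.44 without the 3. This call was lost in 1 of 21 alternatives (limma adjusted p = 0.255), over which the changes ran from -2.01 to -0.77. Of 14 further chaperones and cofactors of the receptor 10 were measured. At E19 Ncoa1, a coactivator of nuclear receptors, was the only one called, higher in KO by 0.50. Without the 3 arrays that call was lost (0.39, limma adjusted p = 0.0525). With all arrays none of these 10 genes was called across birth in either genotype.

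Tsc22d3, or Gilz, carries an anti-inflammatory protein and is a rapid target of the receptor. Its intensity was 5057, 5088, 4371 and 4311 in WT E19 and 5032, 6520, 7271 and 7733 in KO E19. The groups overlapped through KO replicate 1, and the other 3 KO arrays lay above all WT arrays. The KO mean was 6639 ± 1182 against 4707 ± 423 (SD, n = 4 and 4), a difference of 0.48 (SE 0.17, limma adjusted p = 0.0490). That call stood at the threshold: it was lost without WT E19 replicate 2, 3 or 4 or KO E19 replicate 2, 3 or 4, with adjusted p from 0.0573 to 0.13, and the next probe set gave -0.37. Without the 3 arrays the difference was 0.61 (adjusted p = 0.00507). In WT P5 air the values were 3316, 3568 and 3304, all below WT E19, a change of -0.46 that was not called (limma adjusted p = 0.0800). It fell in KO from P5 to P56 by 0.52 (SE 0.19, limma adjusted p = 0.0403), which was lost without KO P5 air replicate 1 (-0.29, adjusted p = 0.288) and without KO P56 air replicate 1 or 2 (0.137 and 0.167).

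Zbtb16, or Plzf, is a zinc-finger repressor strongly induced by glucocorticoid in many cell types. In WT E19 it read 799, 833, 797 and 631, and in P5 air 139, 173 and 115. No postnatal WT array reached the lowest E19 array; the highest was 550, in P56 hyperoxia replicate 2. It fell by 2.24 from E19 to P5 (SE 0.44, limma adjusted p = 0.00102). Its probe set is of a kind that can share sequence with other genes, and another of its probe sets gave -2.35. In KO the E19 values were 1901, 646, 800 and 980, and P5 air gave 1178, 261 and 101. The KO change was -1.53 (SE 0.44, limma adjusted p = 0.0482), and -2.11 without the 3 arrays (adjusted p = 1.78e-06). Leaving out KO E19 replicate 1, 3 or 4 or KO P5 air replicate 2 or 3 alone ended the call, with adjusted p from 0.0544 to 0.513.

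Klf9 is a Krüppel-like repressor that responds to glucocorticoid and thyroid hormone. It read 4375, 5071, 5200 and 3710 in WT E19 and 12027, 8876, 6655 and 10153 in KO E19. Every KO array lay above every WT array. The KO mean was 9428 ± 2256 against 4589 ± 689 (SD, n = 4 and 4), a difference of 1.01 (SE 0.20, limma adjusted p = 0.00117) or 2.02-fold. The exact permutation p was 0.0286, two-sided, which only restates that the ranges did not overlap. With the 8 E19 arrays fitted alone the adjusted p was 0.0963, and without the 3 arrays the difference was 0.89 (adjusted p = 0.000202). Of its other 5 probe sets that passed the filter, the 2 brightest differed by 1.05 and 0.67, both called, and the 3 dimmer ones by 0.30, -0.35 and -0.77, none called.

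After birth Klf9 was not called between genotypes. WT P5 air read 3412, 2766 and 2883, and the 2 KO P5 air arrays other than replicate 1 read 3574 and 3970. The change across birth was -0.59 in WT (limma adjusted p = 0.0658) and -0.88 in KO (SE 0.22, limma adjusted p = 0.0264). The KO call was lost without KO P5 air replicate 2 or 3 (adjusted p = 0.278 and 0.329), and without the 3 arrays the KO change was -1.16. Klf9 then rose in WT to 6770, 6932 and 9871 in P56 air, by 1.36 (SE 0.23, limma adjusted p = 9.39e-05). In KO the same step gave 0.54 (limma adjusted p = 0.0825), and 0.94 without the 3 arrays (adjusted p = 0.000126).

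Sgk1 encodes a kinase that keeps the epithelial sodium channel at the cell surface. It was the gene of the 10 that rose across birth. WT E19 read 2463, 2141, 2539 and 2913, and WT P5 air read 7252, 7557 and 8632. The groups lay far apart, a change of 1.63 (SE 0.28, limma adjusted p = 0.000320) or 3.10-fold. In P56 air WT read 8321, 8827 and 9298, a change from P5 of 0.18 that was not called. In KO E19 Sgk1 was 7608, 3050, 4079 and 2647, where replicate 1 alone was near the postnatal range. KO P5 air read 2753, 7566 and 7231, where replicate 1 alone was near the E19 range. The KO difference at E19 was 0.67 (SE 0.26, limma adjusted p = 0.0816) and 0.36 without the 3 arrays, and it was called without KO E19 replicate 2 (0.79, adjusted p = 0.0437) or 4 (0.86, adjusted p = 0.0308). With these arrays included the KO change was 0.42 (limma adjusted p = 0.398), and without the 3 arrays it was 1.20 (SE 0.18, adjusted p = 3.65e-05). The difference between the genotypes' birth changes was -1.21 with all arrays (limma adjusted p = 0.252) and -0.43 without the 3 (adjusted p = 0.427). KO Sgk1 rose from P5 to P56 by 1.12 (SE 0.30, limma adjusted p = 0.00559); without KO P5 air replicate 1 alone it was 0.65 (adjusted p = 0.0785) and without the 3 arrays 0.65 (adjusted p = 0.00519).

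Dusp1 encodes a phosphatase that switches off MAP kinases and carries part of the anti-inflammatory action of glucocorticoid. At E19 it read 2822, 2436, 3048 and 2808 in WT and 5242, 4232, 3995 and 3178 in KO. All KO arrays lay above all WT arrays, a difference of 0.56 (SE 0.22, limma adjusted p = 0.0830) that was not called, though it was without KO E19 replicate 4 (0.68, adjusted p = 0.0486); without the 3 arrays it was 0.44. In WT it went from 2335, 2122 and 3115 in P5 air to 8857, 10381 and 14633 in P56 air, and in KO from 3040, 2551 and 3670 to 10430, 12405 and 14209. The ages did not overlap in either genotype. Dusp1 rose by 2.14 in WT (SE 0.25, limma adjusted p = 4.75e-07) and by 2.0 in KO (SE 0.25, limma adjusted p = 1.36e-06), the largest rises among the 10 genes. The 10 immediate early genes, a list without Dusp1, moved with it. Their summed intensity was 13912 to 15722 in WT P5 air and 34743 to 43453 in WT P56 air, 14515 to 18798 and 31789 to 33877 in KO. Their part in the rise was not tested.

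Scnn1a encodes the alpha subunit of the epithelial sodium channel, through which the lung absorbs fluid at birth. It read 1526, 1629, 845 and 681 in WT E19 and 1434, 1720, 1534 and 2427 in KO E19. The groups overlapped, and the WT arrays fell into a higher and a lower pair. The KO difference was 0.66 (SE 0.25, limma adjusted p = 0.0750); it was called without WT E19 replicate 1 (0.81, adjusted p = 0.0331) or 2 (0.84, adjusted p = 0.0305) and without the 3 arrays (0.75, adjusted p = 0.0261). Across birth WT Scnn1a moved by 0.06 (limma adjusted p = 0.928). It rose in WT from 1075, 1162 and 1183 in P5 air to 2403, 2210 and 2454 in P56 air, by 1.03 (SE 0.29, limma adjusted p = 0.00974). This call was lost in 1 of 20 alternatives (limma adjusted p = 0.155), over which the changes ran from 0.83 to 1.10. In KO, Scnn1a read 2374, 1071 and 1059 in P5 air, with the high value again from replicate 1. The KO P56 air values were 1465, 1769 and 1861, below every WT array of that condition, and the change from P5 was 0.27 (limma adjusted p = 0.518). The KO difference in P56 air was -0.47 (limma adjusted p = 0.559), and with the 6 arrays of that condition fitted alone it was called (adjusted p = 0.0368).

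Before birth, then, 3 of the 10 genes were called between KO and WT: Klf9 and Tsc22d3 higher and Crh lower. The share called among all genes was 15.2% (6.95% higher and 8.28% lower). The ranges did not overlap for 4 of the 10, Crh, Klf9, Fkbp5 and Dusp1, and for 10.1% of all genes. Crh entered the test through WT E19 alone, so the counts to read against these shares are those of the other 9 genes, 2 called and 3 without overlap. The median change of the 9 was 0.48, against -0.05 for all genes. Centring arrays on their medians moved the all-gene median to 0.23 and called 6 of the 10, with Sgk1 (0.95), Dusp1 (0.84) and Scnn1a (0.94) added. Mitosis markers moved with genotype here: the 8 of 9 measured summed to between 10307 and 14956 in WT E19 and between 3938 and 6901 in KO E19. The 4 club cell markers summed to between 42844 and 54103 in WT E19 and between 55083 and 81266 in KO E19. The mean centred log2 level of the 8 alveolar type 1 markers was -0.81 to -0.47 in WT E19 and -0.15 to 0.11 in KO E19. Their summed intensities overlapped, with 70390 to 85856 in WT E19 and 82183 to 106234 in KO E19. The levels of all other marker lists overlapped. The part of these markers in the differences was not tested.

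**Figure D3:**
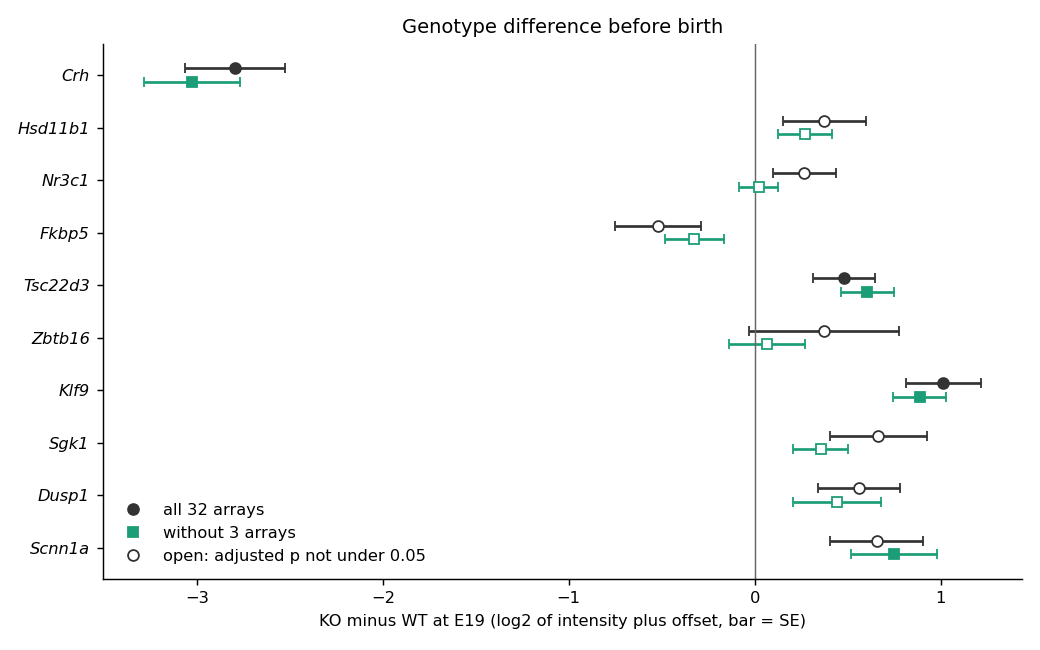
KO minus WT at E19 for each gene as a log2 change with its SE, from all 32 arrays (circles) and without the 3 arrays that stand apart (squares); filled symbols have an adjusted p under 0.05. Crh lies at -2.79 and Klf9 at 1.01 with all arrays, and Scnn1a becomes filled without the 3.

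From E19 to P5 in air 5 of the 10 genes were called in WT, 1 higher (Sgk1) and 4 lower (Crh, Zbtb16, Hsd11b1 and Fkbp5), where 14.6% of all genes were called (8.36% higher and 6.23% lower). For 7 of the 10 the ranges did not overlap, against 29.5% of all genes. Without Crh these counts were 4 and 6 of 9. In KO 3 were called, all lower, where 3.45% of all genes were called (2.21% higher and 1.24% lower), and none of the 10 was free of overlap (6.87% of all genes). Without the 3 arrays 7 were called in KO, Sgk1 higher and Zbtb16, Hsd11b1, Klf9, Fkbp5, Tsc22d3 and Scnn1a lower, where 21% of all genes were called. The same fit called 7 in WT, with Klf9 and Tsc22d3 added, where 27.3% of all genes were called. With KO P5 air replicate 1 alone left out there were 5, and with replicate 2 or 3 of that group left out there were 0. The difference between the genotypes' changes was called for 1 of the 10, Crh, whose entry through WT E19 alone fixed it, and for 0.187% of all genes (0.0525% higher and 0.135% lower). Of the other 9 genes limma called 0, with Fkbp5 and Sgk1 at an unadjusted p under 0.05.

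From P5 to P56 in air 5 of the 10 were called in WT, Hsd11b1, Klf9, Dusp1 and Scnn1a higher and Fkbp5 lower, where 22.9% of all genes were called (12.1% higher and 10.8% lower). Their ranges did not overlap for 7 of the 10, against 54.2% of all genes. In KO 5 were called, Sgk1, Hsd11b1 and Dusp1 higher and Fkbp5 and Tsc22d3 lower, where 29.6% of all genes were called (15.2% higher and 14.3% lower). Non-overlap held for 4 of the 10 and for 53.1% of all genes. Zbtb16 in WT and Crh in KO also changed by at least 0.5 and were not called, Crh under the median of all values at both ages.

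**Figure D4:**
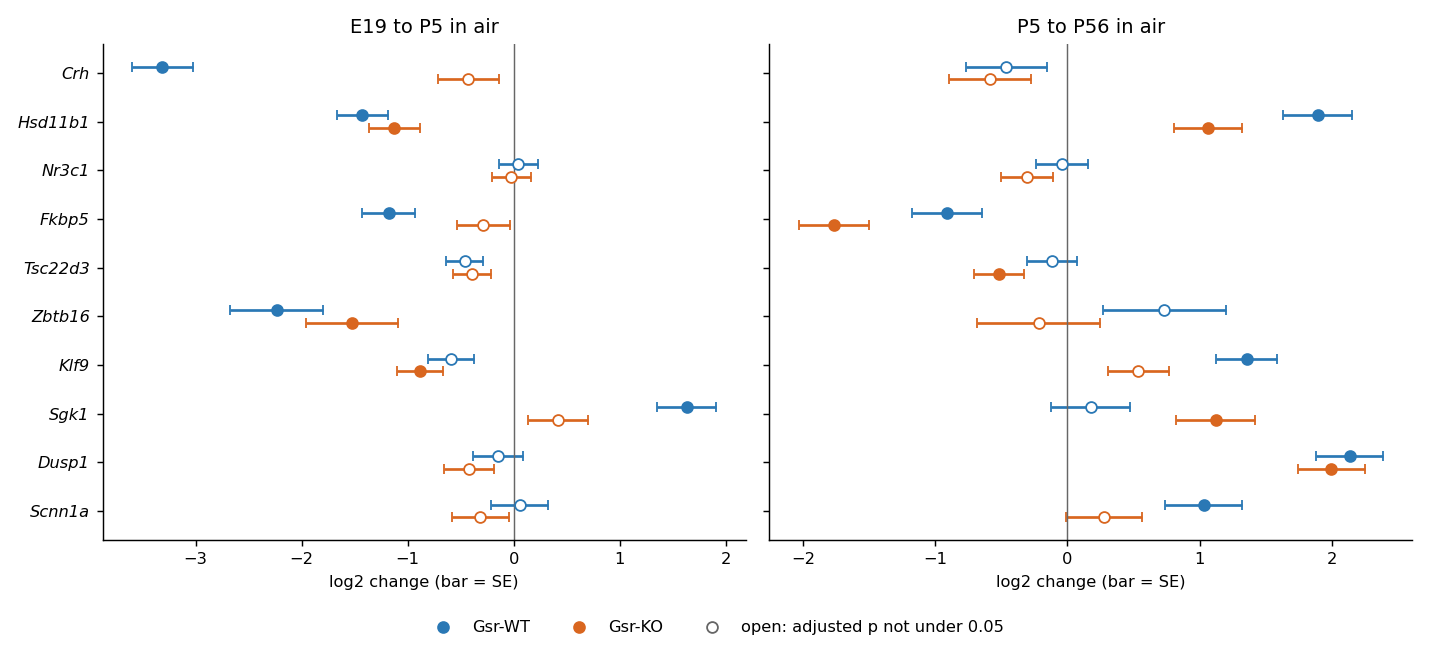
Log2 change with its SE from E19 to P5 (left) and from P5 to P56 (right) in room air, Gsr-WT in blue and Gsr-KO in orange; filled circles have an adjusted p under 0.05. Sgk1 lies at 1.63 in WT and 0.42 in KO across birth, where KO P5 air replicate 1 widens the KO values, and Dusp1 lies near 2 in both genotypes between P5 and P56.

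After birth, no comparison of genotype or of oxygen gave a called gene among the 10. Between KO and WT, limma called 0 of the 10 in P5 air, P5 hyperoxia, P56 air and P56 hyperoxia, where 0.0375%, 0.187%, 0.0749% and 0.0375% of all genes were called. By direction these shares were 0.00749%, 0.172%, 0.0375% and 0.0225% higher and 0.03%, 0.015%, 0.0375% and 0.015% lower in KO. At an unadjusted p under 0.05 there were 4 of the 10 in P5 air and 0 in the other 3. The 4 in P5 air were larger with KO replicate 1: Zbtb16 differed by 1.08 with it and 0.20 without the 3 arrays, Hsd11b1 by 0.68 and 0.17, Klf9 by 0.72 and 0.32, and Tsc22d3 by 0.55 and 0.32. Sgk1 in P5 air differed by -0.55, and over 20 alternatives this ran from -0.80 to -0.07. Ranges did not overlap for 3, 1, 3 and 0 of the 10 in the 4 conditions, against 17.8%, 18.5%, 34.5% and 16.8% of all genes. In P56 air the 3 without overlap were Scnn1a, Fkbp5 and Sgk1. Fkbp5 read 396, 405 and 398 in WT and 320, 227 and 295 in KO, a difference of -0.48. Sgk1 read 8321, 8827 and 9298 in WT and 12630, 11601 and 10682 in KO, a difference of 0.40. The ratio of 3' to 5' control probes also separated these groups. On the log2 scale it was 0.21 to 0.36 in WT P56 air and 0.68 to 1.05 in KO P56 air. Its part in these 3 differences was not tested. In P5 hyperoxia the largest difference was in Zbtb16, at -0.61, with 184, 186 and 190 in WT and 75.1, 139 and 135 in KO.

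Oxygen was tested within each genotype and age. limma called 0 of the 10 genes in WT P5, KO P5, WT P56 and KO P56, where 0.00749%, 0.345%, 0% and 0% of all genes were called (in KO P5 0.337% higher and 0.00749% lower), and 2, 4, 0 and 0 of the 10 had an unadjusted p under 0.05. In WT P5 the 2 were Dusp1 and Scnn1a. Dusp1 read 3459, 4748 and 5073 in hyperoxia against 2335, 2122 and 3115 in air, and every oxygen array lay above every air array. The difference was 0.80 (95% interval 0.28 to 1.33). Scnn1a read 1742, 1849 and 1641 in hyperoxia against 1075, 1162 and 1183 in air, again without overlap, a difference of 0.60 (95% interval from just above 0 to 1.20). Klf9 and Zbtb16 were the other 2 without overlap, 4 of the 10 in all against 17.2% of all genes, and their differences were 0.41 and 0.35. The 10 immediate early genes summed to 20538 to 24479 in WT P5 hyperoxia and to 13912 to 15722 in WT P5 air; their part in these values was not tested. With arrays weighted by their quality 6 of the 10 passed, with Dusp1 at 1.06 and Scnn1a at 0.65.

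In KO P5 the oxygen differences were -1.34 for Zbtb16, -0.69 for Hsd11b1, -0.59 for Tsc22d3 and -0.54 for Klf9, and without the 3 arrays -0.46, -0.18, -0.37 and -0.14. Each was thus smaller without the 3 arrays. With all arrays Fkbp5 and Crh also differed by at least 0.5, Crh under the median of all values in both groups. Without KO P5 air replicate 3 instead, Zbtb16 (-2.08, limma adjusted p = 0.0233) and Hsd11b1 (-1.08, limma adjusted p = 0.0397) were called. Dusp1 read 3430, 3448 and 6439 in KO P5 hyperoxia, and 1 array alone stood above the air range of 2551 to 3670. The ranges did not overlap for 3 of the 10 in KO P5 and for 2 in either genotype at P56, against 15.3%, 14.7% and 15.7% of all genes. At P56, after recovery in room air, the largest oxygen differences were 0.42 for Crh in WT, under the median of all values in both groups, and 0.52 for Scnn1a in KO. The genotype-by-oxygen difference was called by limma for 0 of the 10 at P5 and 0 at P56 (0.15% and 0% of all genes), with 3 and 0 at an unadjusted p under 0.05. Its 3 were Zbtb16 (-1.69), Hsd11b1 (-1.09) and Klf9 (-0.95), which became -0.81, -0.58 and -0.55 without the 3 arrays. Fkbp5, Tsc22d3, Crh and Scnn1a at P5 and Zbtb16 at P56 also differed by at least 0.5 in this test.

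A list of 22 further genes that glucocorticoids induce was measured in full. Across birth in WT 11 fell and 1 rose, where 6.23% of all genes were called lower and 8.36% higher, with a median change of -0.86 against 0.01 for all genes. Hif3a, a hypoxia-inducible factor subunit, went from a mean of 3390 to 545, a change of -2.58 (SE 0.39, limma adjusted p = 9.67e-05). Klf15, a regulator of amino acid and lipid use, changed by -1.86 (SE 0.32, limma adjusted p = 0.000306), and Sult1a1, a sulfotransferase, by -1.66 (SE 0.27, limma adjusted p = 0.000180). Pdk4, a brake on glucose oxidation, and the metallothionein Mt1 changed by -1.43 and -1.41. Angptl4, an inhibitor of lipoprotein lipase, was the 1 that rose, by 1.89 (SE 0.37, limma adjusted p = 0.00116). In KO 6 fell and 1 rose, where 1.24% of all genes were called lower and 2.21% higher, with a median of -0.53 against 0.08 for all genes. They were led by Pdk4 (-1.83, or -2.57 without the 3 arrays), Klf15 (-1.62, or -2.51) and Angptl4 (1.65, or 2.12). Without the 3 arrays 14 fell and 1 rose in KO, where 21% of all genes were called, and 13 fell and 2 rose in WT, where 27.3% were. The test of the difference in birth change between genotypes called 0 of the 22 genes by limma, the lowest adjusted p being 0.189 for Fam107a.

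**Figure D5:**
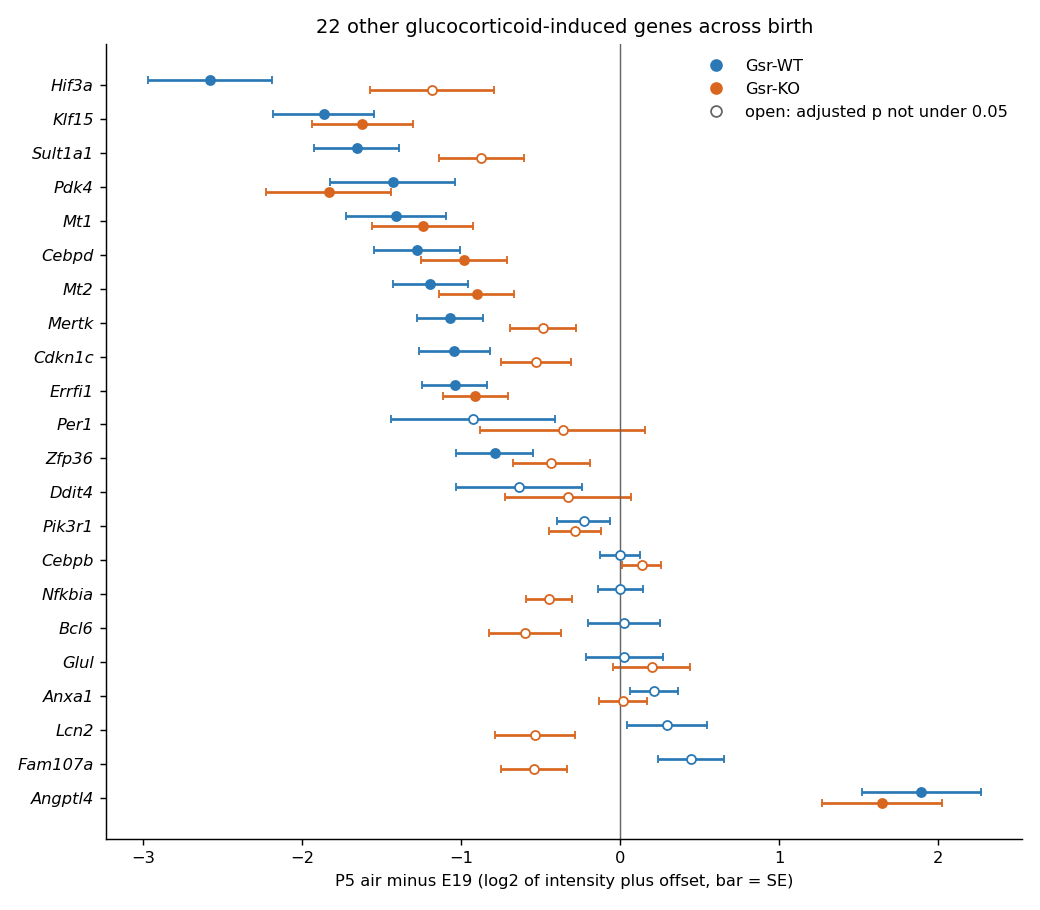
Log2 change from E19 to P5 air with its SE for 22 further glucocorticoid-induced genes, ordered by the change in Gsr-WT (blue) beside that in Gsr-KO (orange); filled circles have an adjusted p under 0.05. In WT 11 filled circles lie left of 0 and Angptl4 alone lies right of it at 1.89.

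At E19, 4 of these 22 genes were higher in KO and 0 lower by limma. They were Fam107a (1.01), the iron-binding protein gene Lcn2 (0.71), the repressor Bcl6 (0.61) and Nfkbia (0.46), the inhibitor of NF-kappaB; 6.95% of all genes were called higher and 8.28% lower there. Without the 3 arrays Bcl6 was lost (0.32, adjusted p = 0.143), and 8 were higher and 1 lower. The median of the list was 0.16 against -0.05 for all genes. From P5 to P56, 6 rose and 1 fell in WT, led by Fam107a (2.34), where 12.1% of all genes were called higher and 10.8% lower. In KO 5 rose and 4 fell, where 15.2% were called higher and 14.3% lower.

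Of 11 surfactant genes measured 4 were higher in KO at E19 and 0 lower by limma, where 6.95% of all genes were called higher and 8.28% lower. The median change of the 11 was 0.06, against -0.05 for all genes. Scd1, a fatty acid desaturase, had means of 19096 and 7928 (1.28, SE 0.18, limma adjusted p = 6.52e-05; 1.17 without the 3 arrays). Sftpa1, surfactant protein A, had means of 13657 and 6448 (1.08, SE 0.13, limma adjusted p = 7.32e-06; 0.94 without the 3 arrays), and Sftpd and the lipid pump Abca3 were higher by 0.74 and 0.73. Sftpa1 then rose in WT across birth by 0.71, and its birth change differed between genotypes by -0.98 (SE 0.20, limma adjusted p = 0.0299). That call was lost with no filter (adjusted p = 0.0518), no variance trend (0.0575), median centring (0.118), the next probe set (0.356), the compared groups alone (0.788) and without WT P5 air replicate 3 and KO P5 hyperoxia replicate 1 (0.124), and it stood at 0.0497 without the 3 arrays. Of 8 fluid genes measured Scnn1g, the gamma subunit of the sodium channel, was higher in KO E19 by 0.93 (SE 0.18, limma adjusted p = 0.00105). Across birth in WT, Scnn1g rose by 0.81, Scnn1b, the beta subunit, by 0.85 and the water channel Aqp1 by 1.0. Nedd4l, the ligase that removes the channel from the membrane and is restrained by Sgk1, fell by 1.78 (SE 0.39, limma adjusted p = 0.00300). Over all 58 pathway genes 11 were higher and 1 lower in KO at E19, 12 called where 15.2% of all genes were. The count was 1 with the compared groups alone, 2 with the liver level as a covariate, 19 without the 3 arrays and 21 with median centring.

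Across the 32 arrays the 10 genes did not move as a block, as Pearson correlations of log2 values over the same arrays describe. Fkbp5 and Sgk1 ran opposite to each other (r = -0.91, and -0.80 after group means were removed), and without the 3 arrays the values were -0.90 and -0.52. Hsd11b1 and Klf9 ran together over all arrays (r = 0.88), but their correlation within groups went from 0.65 to -0.04 without the 3 arrays. For Zbtb16 and Hsd11b1 it was 0.62 over all arrays, and within groups it went from 0.76 to 0.11. The within-group values thus rested on those arrays for both pairs. For each of the 10, the 3 genes of highest correlation over the 32 arrays describe which others had a like profile. Sgk1 was most like Hpgd, a prostaglandin-degrading enzyme (r = 0.948), then Bvht (0.929) and Otud1 (0.926). Hpgd ran from 640 to 1083 in WT E19 and from 12688 to 13590 in WT P56 air. Hsd11b1 was most like the monooxygenase gene Fmo2 (r = 0.961), then Usp18 (0.922) and Kcnj15 (0.907). Dusp1 was most like the immediate early gene Fos (r = 0.949), then Aldh3a1 (0.940) and Cdhr3 (0.939). Zbtb16 was most like the glucose transporter gene Slc2a1 (r = 0.939), then Pdk1 (0.924) and Ndrg1 (0.919). Fkbp5 was most like Srpx2 (r = 0.944), then Nt5dc2 (0.938) and Cdkn1c (0.931), the last a cell cycle inhibitor in the list of induced genes. Klf9 was most like Amhr2 (r = 0.920), then Tgm2 (0.902) and Prkg2 (0.895). The other 4 genes had lower values at the top: Plac1 for Crh (r = 0.907), 4932438A13Rik for Nr3c1 (0.900), Adamtsl4 for Scnn1a (0.891) and Maff for Tsc22d3 (0.887). Next in order were Paqr5 (0.854) and Cd164l2 (0.847) for Crh, Ghr (0.894) and Zbtb33 (0.886) for Nr3c1, Ahcyl2 (0.876) and Tgoln1 (0.873) for Scnn1a, and Corin (0.859) and Foxo3 (0.848) for Tsc22d3. These likeness values are given with all arrays only. The highest Nr3c1 values were on KO E19 replicate 1 (6627) and WT P56 hyperoxia replicate 2 (4846). In those groups 4932438A13Rik reached 3335 and 2317, against at most 1439 in any other group.

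The order of the 10 group means gives the span of each gene. Crh was highest in WT E19 and under the median in every other group, so no fold is given. Zbtb16 spanned 7.31-fold, from KO P5 hyperoxia up to KO E19, and Fkbp5 5.96-fold, from KO P56 air up to WT E19. Dusp1 spanned 4.88-fold and Sgk1 4.61-fold, both with KO P56 air highest, Dusp1 from WT P5 air and Sgk1 from WT E19. Hsd11b1 spanned 3.74-fold, from KO P5 hyperoxia to WT P56 air, and Klf9 3.05-fold, from WT P5 air to KO E19. Scnn1a and Tsc22d3 spanned 2.41-fold and 2.09-fold. Of 9 neighbouring pairs in each order, the ranges of 6 overlapped for Zbtb16 and Fkbp5, 8 for Tsc22d3, Crh, Hsd11b1, Dusp1 and Scnn1a, and all 9 for Sgk1, Klf9 and Nr3c1.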

How the data were processed

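Lung RNA of 32 mice in 10 groups was measured on Affymetrix arrays. The deposited intensity values, on a linear scale, were made with MAS5 per the submitters' processing notes; version, detection calls and scan dates are not given in the sources used here. The mean of each array without the lowest and highest 2% was 500 on every array. Analysis used R 4.3.3 and limma 3.58.1 on log2 of intensity plus 26.3, the 25th percentile. Probe sets above the overall median of 100.4 on at least 3 arrays passed the filter. Of 45101 probe sets, 64 were controls, 9160 had no gene symbol and 932 several; 23428 with 1 symbol were kept. The probe set of highest mean stood for each of 13345 genes.

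All arrays entered 1 fit with a mean per group, 22 residual degrees of freedom and a trended variance prior. The 16 contrasts have two-sided p-values, adjusted by Benjamini-Hochberg across the 13345 genes. The fit was tested on simulated data. A change of a member is given where it was called. Changes of at least 0.5 in size that were not called are given only in part. A member without a value may thus have changed by that much. Up to 4 called genes of largest change are named per further list, and the 3 genes of highest Pearson r for each member. Of 69 pathway genes 58 were tested, and 14 listed genes are not in the annotation used. Lists of marker genes served to describe arrays. The members and lists were chosen with earlier results of these data known. Same-numbered arrays of compared groups correlated above 0.1 in 10 of 40 pairs (range -0.41 to 0.28). In 1 comparison, KO against WT in P5 hyperoxia, every pair lay above 0.1, at 0.25, 0.11 and 0.17. Arrays were treated as unpaired in all comparisons. Where nothing shows separate litters, p-values measure the spread between these mice.

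12 other settings, each array left out in turn and 3 settings added after the data were seen were run. Promoter windows came from RefSeq on GRCm38.p6; 4 genes without a window are Nr3c1, Crh, Scnn1a and Zbtb16.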

Additional observations from a re-analysis of the deposited data

Results flagged for a closer look

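The change of Crh from E19 to P5 air differed between the genotypes by 2.886 on the log2 scale (SE 0.41, limma adjusted p = 0.000660), a difference between groups by its own interaction test. Crh passed the filter on low values through the WT E19 arrays alone, so it had to differ there and the p-value is no support. Crh went from 568, 364, 414 and 237 to 21.8, 11 and 11.3 in WT and from 68.3, 27.8, 23.3 and 19.3 to 42.9, 3.57 and 13.2 in KO. All arrays but those of WT E19 lay under the overall median of 100.4, so the size depends on the offset. Without the 3 arrays that stand apart it was 2.78 (adjusted p = 0.00113).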

How the results depend on the processing

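The 16 counts of called members stayed within 1.5 times the main count under every setting run except those given next; with array weights 11 of the 16 did not. With compared groups fitted alone the count was 1 in place of 3 for KO against WT at E19, 2 in place of 0 for KO against WT in P56 air, 0 in place of 3 from E19 to P5 in KO, 3 in place of 5 from P5 to P56 in KO and 0 in place of 1 for the difference in birth change. With array weights, which ran from 0.0468 to 10.4, the counts of 0 became 2, 4, 2 and 2 for genotype in air and hyperoxia at P5 and in air and hyperoxia at P56, 6, 5 and 1 for oxygen in WT P5, KO P5 and WT P56, and 3 for the genotype-by-oxygen difference at P5; they became 8 from P5 to P56 in WT and in KO (5 each) and 7 from E19 to P5 in KO (3). An offset of 1 gave 0 for the difference in birth change (1). Quantile normalization gave 1 from E19 to P5 in KO (3), median centring 6 at E19 (3), the next probe set 3 from P5 to P56 in KO (5), and the liver covariate 3 from P5 to P56 in WT (5). Without the 3 arrays, chosen after the data were seen, E19 to P5 in KO gave 7 (3). Leaving out 1 array at a time gave 0 to 5 there and 0 to 2 for oxygen in KO P5. Causes other than fewer arrays were not tested.

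3 changes of sign occurred. The next probe set gave -0.3718 for Tsc22d3 in KO against WT at E19 and 0.0119 for Fkbp5 in the genotype-by-oxygen difference at P5. Leaving out 1 array gave Zbtb16 a difference in birth change from -0.1769 to 1.4457. With the replicate number as a block the count at E19 was 3, as without it, but Tsc22d3 was lost (0.48, adjusted p = 0.0564) and Dusp1 gained (0.56, adjusted p = 0.0238).

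With 3 or 4 arrays a group, small changes are not resolved: the SE of a member ran from 0.17 to 0.47 in pairwise comparisons, and Crh had no level above background outside WT E19.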
